A study of Mus musculus with 13 samples.

Results

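The 1357 candidate regions described here were the C/EBPα ChIP-seq candidates of hematopoietic stem and progenitor cells that lay in gene deserts of the mouse genome. A candidate belonged to them when its centre was more than 300 kb from the transcription start site (TSS) of every protein-coding gene and inside no protein-coding transcript. They were 7.58% of the 17899 candidates of the deposited list (95% exact binomial interval 7.20% to 7.98%, as wherever a range follows a share below, counting error only). The rule used position relative to genes alone, so that score, width, sequence and the identity of the flanking genes did not enter it. The members were chosen with earlier results of these data known.

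The study asked where C/EBPα binds in LSK cells (Lin- Sca-1+ Kit+ bone marrow cells, an early fraction of blood formation) and how its loss changes them. Of its 13 samples, 1 C/EBPα library from LSK cells was used. The other 12, which include another C/EBPα library from LSK cells and libraries from granulocyte-macrophage progenitors, with IgG and for histone marks, were not analysed here. The analysed library was made with the antibody Santa Cruz 14-AA from mice of the strain C57BL/6 cebpa flox/flox;Mx1Cre. Its labels give no sex or age, and no genotype beyond the strain, so it cannot be told from them whether the floxed alleles had been deleted. Mx1Cre is driven by an interferon-responsive promoter and deletes floxed alleles after injection of pIpC in blood cells and in other tissues. The IgG mock that served as the control of the call came from the same strain. With 1 library, the values computed here have no replicate check, and no p-value is given. Membership of the study's list of high-confidence regions, used below, did rest on agreement between samples. Read numbers are not part of the candidate list, and the depth of the library was not used here.

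C/EBPα is a basic leucine zipper transcription factor that binds DNA as a dimer and is required for the formation of granulocytes. Gene deserts are long stretches without protein-coding genes, and some of them hold enhancers that act over long distances on a flanking gene, often a developmental regulator. Deserts are on the whole rich in A and T and in interspersed repeats, and short reads from repeats can match many places in the genome.

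The sequences at the centres of 12 desert regions are shown first, because these regions were among the 10 with the highest scores or were also in the study's list of high-confidence regions. Each is the 141 bp around the centre of the region on the plus strand of mm9, named by the genes to the left and right of the desert, and capitals mark the C/EBP words TTACNNAA and TTGCNNAA on either strand.
Gm7112 to Ighv1-73, chr12:116396688-116396828: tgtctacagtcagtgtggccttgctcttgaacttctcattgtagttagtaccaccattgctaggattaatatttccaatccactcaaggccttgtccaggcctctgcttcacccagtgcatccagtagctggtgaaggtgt
Tmem167 to Atp6ap1l, chr13:90655641-90655781: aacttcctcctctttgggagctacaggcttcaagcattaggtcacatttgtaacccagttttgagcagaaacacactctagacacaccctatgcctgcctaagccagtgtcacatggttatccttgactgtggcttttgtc
1700019M22Rik to Galc, chr12:98299805-98299945: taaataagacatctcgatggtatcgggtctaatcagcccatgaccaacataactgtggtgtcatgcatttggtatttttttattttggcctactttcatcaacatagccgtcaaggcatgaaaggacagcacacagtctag
Cetn3 to Mef2c, chr13:83213335-83213475: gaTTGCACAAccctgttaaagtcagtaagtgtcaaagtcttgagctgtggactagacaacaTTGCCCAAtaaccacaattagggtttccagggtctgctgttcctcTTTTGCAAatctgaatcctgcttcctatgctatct
Lcorl to Slit2, chr5:47860892-47861032: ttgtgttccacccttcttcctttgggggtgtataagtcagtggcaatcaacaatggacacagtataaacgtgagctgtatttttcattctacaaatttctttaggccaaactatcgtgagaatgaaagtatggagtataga
Gm7112 to Ighv1-73, chr12:116610136-116610276: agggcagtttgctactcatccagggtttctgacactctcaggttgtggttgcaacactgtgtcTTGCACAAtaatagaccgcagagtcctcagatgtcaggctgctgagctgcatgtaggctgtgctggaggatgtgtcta
Gm7112 to Ighv1-73, chr12:116699277-116699417: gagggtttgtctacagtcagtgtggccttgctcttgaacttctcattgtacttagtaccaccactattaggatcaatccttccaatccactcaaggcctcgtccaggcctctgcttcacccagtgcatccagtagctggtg
Agtr1b to Tbl1xr1, chr3:21661096-21661236: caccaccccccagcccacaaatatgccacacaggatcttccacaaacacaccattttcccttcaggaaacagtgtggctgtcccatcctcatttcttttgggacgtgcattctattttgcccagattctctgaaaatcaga
Slc4a3 to Epha4, chr1:76402203-76402343: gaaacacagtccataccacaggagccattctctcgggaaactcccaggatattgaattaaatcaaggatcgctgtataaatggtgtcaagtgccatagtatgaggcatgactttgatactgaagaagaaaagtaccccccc
St3gal1 to Zfat, chr15:67730757-67730897: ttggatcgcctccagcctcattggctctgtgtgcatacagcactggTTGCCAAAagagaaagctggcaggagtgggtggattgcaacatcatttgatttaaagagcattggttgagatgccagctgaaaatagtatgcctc
Gm7112 to Ighv1-73, chr12:116573421-116573561: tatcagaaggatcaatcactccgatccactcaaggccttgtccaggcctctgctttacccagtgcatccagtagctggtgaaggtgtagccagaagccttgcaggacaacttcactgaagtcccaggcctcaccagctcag
Nmbr to Cited2, chr10:16716710-16716850: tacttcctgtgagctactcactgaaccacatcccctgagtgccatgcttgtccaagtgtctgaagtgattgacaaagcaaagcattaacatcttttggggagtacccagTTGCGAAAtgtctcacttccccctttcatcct

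The score of a region comes from the peak caller MACS and is its p-value against the IgG mock as a negative log10 multiplied by 10. The highest score in a desert, 1162, belonged to chr12:116396364-116397151, in the immunoglobulin heavy-chain locus between Gm7112 and Ighv1-73, and it was the 19th highest of all candidates. Its centre lay in AB069917, which the annotation types as an immunoglobulin V gene and not as protein-coding, so that the locus counted as a desert. Regions at chr12:116609692-116610720 and chr12:116698944-116699749 in the same desert had scores of 351 and 337. Of the 32-mers (all stretches of 32 bases) in these 3 regions, 25.4%, 39.2% and 18.3% occurred once in the genome. The V segments are a family of related genes, and 7 of the 11 regions of this desert, the 4 with a printed sequence among them, formed 1 group linked by alignments of at least 100 bp.

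Outside the heavy-chain locus, the highest score was 820.0, at chr13:90655421-90656000 between Tmem167 and Atp6ap1l, 389249 bp from the nearest TSS and with every 32-mer occurring once. Its central window held an ETS word and no C/EBP word, and the nearest C/EBP word, TTGCACAA, lay 118 bp from the centre. The region chr13:83213221-83213589, with a score of 477, lay 429628 bp upstream of Mef2c, which encodes a MADS-box transcription factor of muscle, neurons and blood cells. It was the only one of the 12 with 3 C/EBP words in its central window, and TTGCCCAA lay 6 bp from its centre beside ETS and RUNX words. All of its 32-mers occurred once.

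The region chr5:47860557-47861366, with a score of 401, lay 513432 bp from the TSS of Slit2, which encodes a guidance ligand of Robo receptors. Next to Tbl1xr1, which encodes a subunit of a nuclear corepressor complex, chr3:21660816-21661515 had a score of 322. Both were made up of 32-mers that occur once and held no C/EBP word at the centre. The last of the 10 highest scores, 279, belonged to a region of 218 bp, chr1:76402164-76402381, between Slc4a3 and Epha4.

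Some desert regions matched sequence outside the nuclear chromosomes. The region chr12:98299491-98300258, between 1700019M22Rik and Galc, had a score of 487, and 365 bp of it matched the mitochondrial genome at 99.7% identity. A further 2 desert regions matched the mitochondrial genome, both between Ptprd and Tyrp1, over 571 bp at 95.6% identity and over 562 bp at 93.2%. The mitochondrial comparison was chosen after the values were seen. Whether reads of mitochondrial origin entered these regions was not tested.

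Of all desert regions, 10 (0.737%, 0.354% to 1.35%) had the same identifier and position in the study's list of high-confidence regions, against 397 of all candidates (2.22%). Among the 10 highest scores in deserts, 7 were in that list. At scores of at least 200 it held 8 of 14 desert regions (57.1%) and 249 of 354 other candidates (70.3%). The heavy-chain desert held 4 of the 10 desert regions in the list. The last of them was chr12:116573107-116573874, with a score of 149 and its centre in Ighv1-59. The other 6 were the regions next to Tmem167, Galc, Mef2c and Tbl1xr1 and a pair with lower scores. Of this pair, chr15:67730455-67731199, between St3gal1 and Zfat, had a score of 262 and the word TTGCCAAA 20 bp from its centre. The second, chr10:16716368-16717192, had a score of 96.3 and lay 726254 bp from the TSS of Cited2, which encodes a coactivator that binds CBP and p300 and is needed for fetal and adult blood stem cells. Its central window held the word TTGCGAAA beside ETS and RUNX words. A C/EBP word lay somewhere in 8 of the 10 regions and in the central window of 4, against 33.8% and 8.92% of all desert regions, and 85.3% and 51.9% of the 387 high-confidence regions outside deserts. The interval for 4 of 10 was 12.2% to 73.8%, and the 4 heavy-chain regions belong to 1 group of linked sequences. The 10 regions were also wider, with a median of 768 bp against 581 bp for all desert regions, which leaves more room for a word.

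Desert regions as a whole had a median score of 82.1 (interval of the median from order statistics 81.0 to 85.7), against 73.8 for all candidates and 75.1 for the 8088 intergenic candidates within 300 kb of a TSS. A score of at least 100 was reached by 392 desert regions (28.9%, 26.5% to 31.4%) and by 20.3% of all candidates (19.7% to 20.9%). Towards the top of the range the order turned. A score of at least 200 was reached by 14 desert regions (1.03%, 0.565% to 1.72%) and by 2.14% of the candidates outside deserts (1.92% to 2.37%), as the plot of scores shows. Desert regions were thus more often of middling score and less often of high score than the other candidates.

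**Figure D1:**
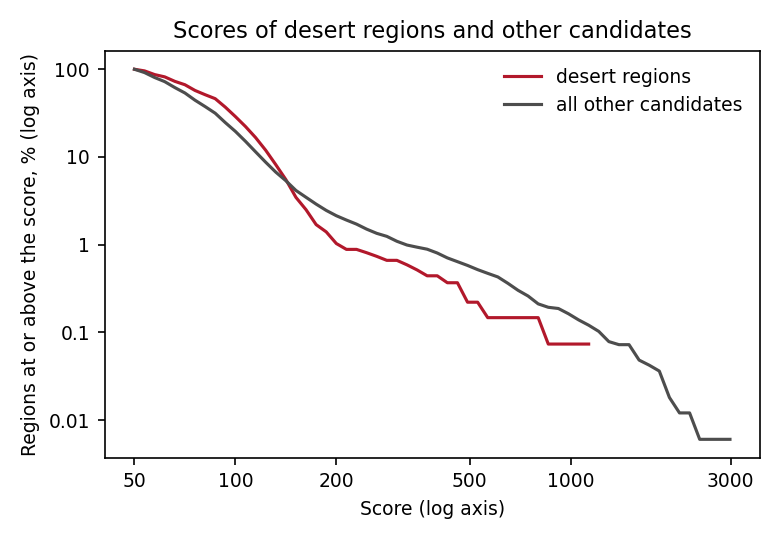
Share of regions (%, log axis) at or above each score (log axis) for the 1357 desert regions and the 16542 other candidates. The desert line lies above the other at a score of 100 (28.9% against 19.6%) and below it at 200 (1.03% against 2.14%).

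The regions were of like width. The median width of desert regions was 581 bp (577 to 584), with quartiles of 535 and 625 bp and a range of 218 to 1756 bp. All candidates had a median of 587 bp and reached 9052 bp. At least 1000 bp were spanned by 16 desert regions (1.18%, 0.675% to 1.91%) and by 1.79% of all candidates.

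Positions more than 300 kb from a TSS and outside transcripts made up 411 Mb of the 2559 Mb of sequenced bases, or 16.1%. The desert regions were spread over them at 3.30 per Mb, while the rest of the genome held 7.70 per Mb, a ratio of 0.428 (0.405 to 0.453). For candidates with at least 90% of 32-mers occurring once it was 0.265, and for scores of at least 100 it was 0.632. Over all candidates, the density on every autosome was lower in deserts than outside, with ratios from 0.312 on chromosome 8 to 0.544 on chromosome 13. Chromosome X stood apart. It held 25 desert regions, 0.942 per Mb of desert, and 0.937 per Mb outside, against 3.46 and 8.17 per Mb on the autosomes. On chromosome Y no desert region was found in 0.0824 Mb of desert.

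**Figure D2:**
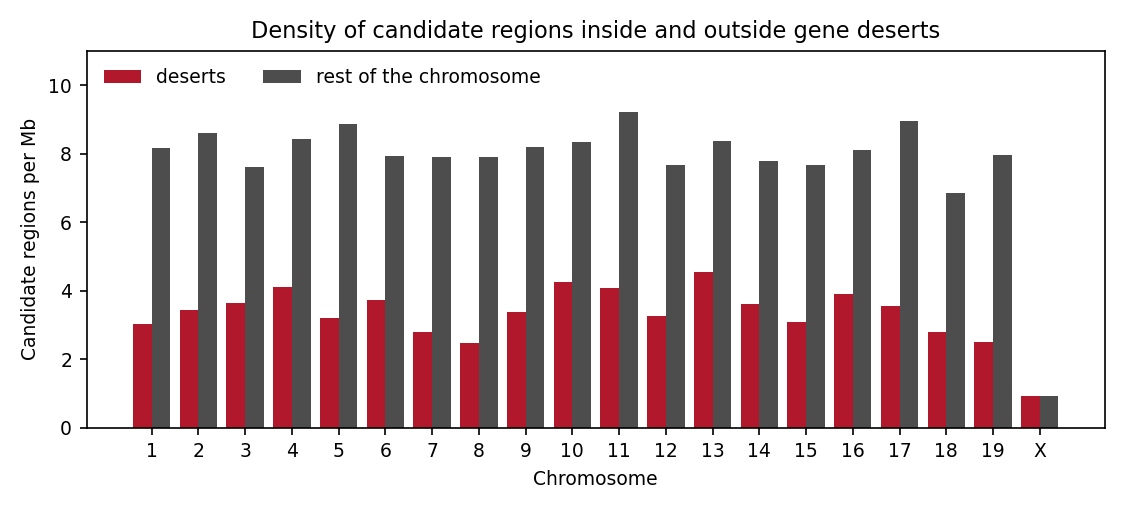
Candidate regions per Mb of sequenced bases (y axis) in gene deserts and in the rest of each chromosome (x axis, chromosome Y left out). Bars for deserts are lower on every autosome, from 2.47 per Mb on chromosome 8 to 4.55 on chromosome 13, and the bars of chromosome X are nearly equal at 0.942 and 0.937.

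The most distant region, chr1:104203778-104204343, lay 2461045 bp from the TSS of Cdh20, in the desert between Cntnap5b and Cdh20, both genes of neural cell adhesion. Its score was 71.3. Next came chr14:82647122-82647695, 2195961 bp from the TSS of Pcdh17, a protocadherin gene, with a score of 56.5. The desert between Hace1 and Grik2, which encodes a kainate receptor subunit, held the remaining 3 of the 5 most distant regions. They were chr10:47346659-47347344, chr10:47461587-47462299 and chr10:47622542-47623166, with scores of 97.8, 107 and 92.7. The first of these had a C/EBP word at its centre, and 15.7% of its 32-mers occurred once.

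Over all desert regions the median distance to the nearest TSS was 501409 bp. Between 300 and 400 kb lay 407 regions, between 400 and 500 kb 270, between 500 and 1000 kb 506, and between 1000 and 2000 kb 170, and 4 were farther away. Since the 5′ ends of genes set the rule, a region could lie close to a 3′ end, and 21 regions (1.55%) were within 50 kb of the edge of a protein-coding gene. More than 300 kb from every edge were 1117 (82.3%). Inside a gene that is not protein-coding lay 40 centres (2.95%, 2.11% to 3.99%). By type of gene, 21 were in processed transcripts, 7 in immunoglobulin V genes, 6 in pseudogenes, 5 in lincRNAs and 1 in a miscellaneous RNA. The share of desert bases in such genes was not computed, so the count cannot be called high or low.

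The limit of 300 kb has neighbours on both sides. The 3 desert regions just inside it, at 300134, 300321 and 300674 bp from the TSSs of Rtl1, Tgfbr2 and C1d, had scores of 63.5, 76.8 and 65.7. The 3 intergenic candidates just outside it, at 299967, 299860 and 299664 bp from the TSSs of Arhgef26, Nr5a2 and Ppp2r3a, had scores of 52.0, 112 and 55.3.

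The regions were shared out over 428 of the 670 deserts (63.9%, 60.1% to 67.5%). Exactly 1 region lay in 135 deserts, 2 in 92, 3 in 57, 4 in 49, and 5 or more in 95. Occupied deserts were longer, with a median of 609 kb of bases beyond the limit against 135 kb for empty ones. Across deserts the number of regions and the length had a Spearman rho of 0.694 (670 deserts of 1 library, a description). Per base, however, the longest deserts held the fewest. Deserts of at least 1000 kb had 2.85 regions per Mb, those of 500 to 1000 kb 3.52, those of 100 to 500 kb 4.32, and those under 100 kb 4.73. The longest empty desert, of 1712 kb, lay on chromosome X between Gm5382 and Cypt1.

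**Figure D3:**
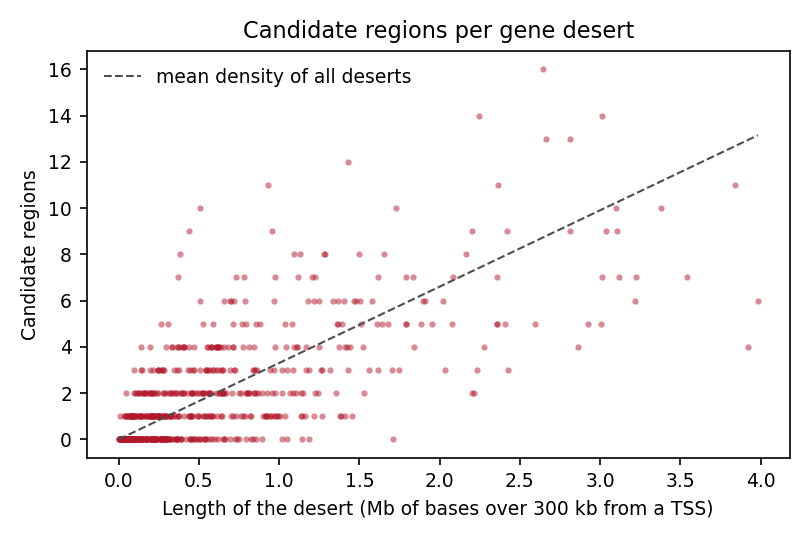
Number of candidate regions (y axis) against the length of each of 670 gene deserts in Mb of sequenced bases beyond 300 kb from a TSS (x axis), 1 point per desert. The dashed line is the mean density of 3.30 regions per Mb, and the fullest desert holds 16 regions.

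The fullest desert, between the potassium channel gene Kcnt2 and Cdc73 on chromosome 1, held 16 regions in 2.65 Mb, with scores from 50.6 to 152 and a median of 78.2. On chromosome 16, the desert between Alcam and Zpld1 held 14 regions, with a median score of 84.8, and that between Ncam2 and Mrpl39 held 13, with a median of 88.7. Alcam and Ncam2 encode adhesion molecules of the immunoglobulin superfamily. Between Igfbp7 and the latrophilin gene Lphn3 on chromosome 5 there were 14 regions, with a median score of 84.4. The 13 regions between Epha7 and Map3k7, which encodes the kinase TAK1, had the highest median score of the 5 fullest deserts, 102. No C/EBP word lay at a centre in 3 of these 5 deserts, those beside Lphn3, Ncam2 and Epha7, beside 8.92% of all desert regions, and with 13 or 14 regions each they are too small to compare. In 9 of the 13 regions between Epha7 and Map3k7 at least 90% of the 32-mers occurred once, against 1 of the 13 between Ncam2 and Mrpl39. Among the 13 deserts with 10 or more regions, that between Med13l and Tbx3, a T-box gene of limb and heart development, was the densest. It held 10 regions in 0.510 Mb, 19.6 per Mb, and its GC content of 47.1% was the highest of the 13. In 9 of its 10 regions at least 90% of the 32-mers occurred once, against 46.1% of all desert regions. The heavy-chain desert followed with 11.9 per Mb. The densities were looked at after the counts were known.

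The median distance from a desert region to the next candidate centre was 86496 bp, and 123 regions (9.06%) had another candidate within 10 kb. These distances were not computed for the other candidates or for evenly spread positions. They therefore add nothing beyond the low density given above. The orientation of the flanking genes made little difference to the density, with 3.35 regions per Mb where a start and an end faced the desert, 3.29 where both gene ends did, and 3.19 where both gene starts did.

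Repeated sequence was common in desert regions. In 626 of them (46.1%, 43.5% to 48.8%) at least 90% of the 32-mers occurred once in the genome, against 72.4% of all candidates and 67.1% of the intergenic candidates within 300 kb. Fewer than 50% of the 32-mers occurred once in 24.2% of desert regions (21.9% to 26.5%) and in 9.74% of all candidates. The genomic setting did not differ as much. Of windows of 141 bp placed every 20 kb in the deserts, 63.3% consisted of 32-mers that occur once, and of those outside 68.7%. The same held for 42.7% of the central windows of desert regions and for 72.9% of those of the other candidates. Desert regions were therefore less unique than the desert around them, while other candidates were slightly more unique than their surroundings. On chromosome X, the median share of 32-mers that occur once was 17.3%, and only 1 in 25 desert regions there reached 90%.

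When the desert regions were compared with one another, 640 (47.2%, 44.5% to 49.9%) shared an alignment of at least 100 bp with another desert region. Linked through such alignments, 544 regions on 20 chromosomes fell into 1 group, in which members need not resemble each other directly, and the next group held 28. Candidates outside deserts were not compared in this way. Neither the share nor the groups can therefore be called particular to desert regions. The group of 7 in the heavy-chain desert had a median score of 149. The large group had a median score of 81.2, close to the 82.8 of the 717 regions that shared no sequence, and the second group a median of 90.5. The median score was also alike in regions with at least 90% of 32-mers occurring once (82.0) and in the others (82.2). How reads that match several places were placed affects the counts in such regions, and its part in the density and scores was not tested.

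**Figure D4:**
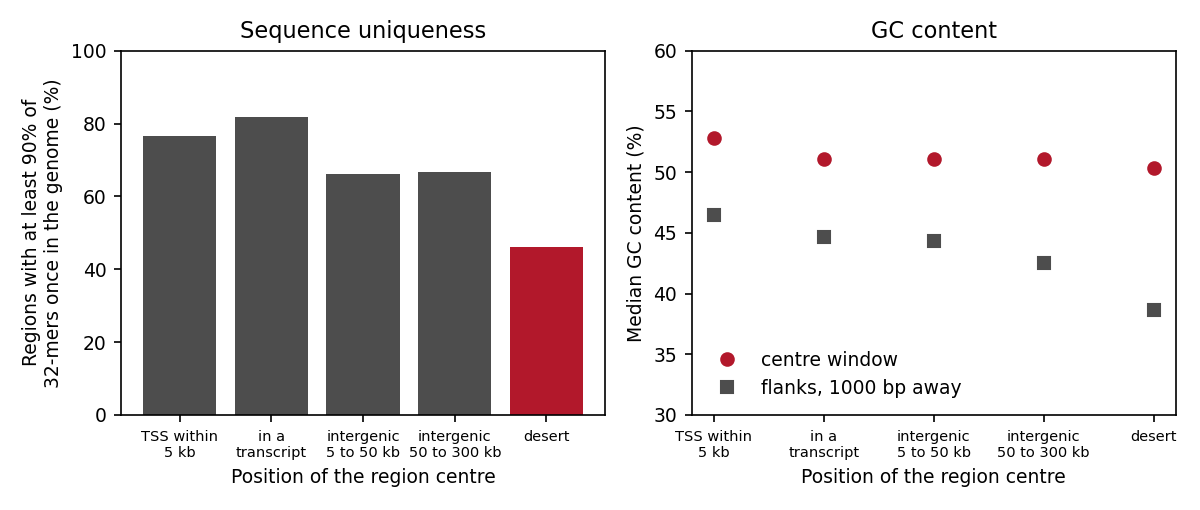
Left, share of regions (%) in which at least 90% of 32-mers occur once in the genome, by position of the region centre. Right, median GC content (%) of the central window and of windows 1000 bp to both sides. Desert regions have the lowest share of unique regions, 46.1%, and the largest gap in GC content, 50.4% at the centre against 38.7% in the flanks.

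The centres were rich in G and C. Their median GC content was 50.4% (50.4% to 51.1%), while windows 1000 bp to both sides had a median of 38.7% and windows placed every 20 kb in the deserts 37.6%. In all candidates the centres had 51.1% and the flanks 44.0%. Thus the centres of desert regions were close to those of other candidates in GC content, although the sequence around them was not.

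A C/EBP word lay in the central window of 121 desert regions (8.92%, 7.45% to 10.6%). It was found in 406 of the 2714 windows 1000 bp to both sides of them and in 15.9% of the windows placed every 20 kb in the deserts. In all candidates the share was 10.6% at the centre and 12.0% in the flanks. The reversed word, AANNCATT or AANNCGTT, which has the same bases in the opposite order, fell from 15.4% in the flanks of desert regions to 5.01% at their centres (3.91% to 6.31%). The form TTGCNNAA alone differed little, with 6.48% at desert centres (5.23% to 7.93%), 7.18% in their flanks and 7.49% in the desert windows. Its most frequent spelling at the centres was TTGCCCAA, with 21 matches. The palindrome TTGCGCAA was rare, at 3 of 1357 desert centres (0.221%, 0.0456% to 0.645%) and 0 of 2714 flank windows. In the desert windows it was rarer still, at 2 of 20555 (0.00973%, 0.00118% to 0.0351%). In all candidates it was at 0.525% of centres and 0.00559% of flanks.

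GC content was set beside these shares by splitting the windows. Where 50% to 55% of the bases were G or C, 4.23% of desert regions held a C/EBP word (2.57% to 6.53%), as did 4.77% of the desert windows placed every 20 kb (3.61% to 6.18%) and 9.48% of the other candidates (8.72% to 10.3%). Below 45% GC the shares were 16.4%, 17.8% and 16.9%, from 45% to 50% they were 11.3%, 10.6% and 11.9%, and from 55% upwards they were 7.09%, 5.15% and 7.58%. In each of the 4 classes the interval of the desert regions overlapped that of the desert windows, and only from 50% to 55% did it lie apart from that of the other candidates. The reversed word was less frequent below 45% GC in desert regions (9.13%, 5.67% to 13.8%) than in desert windows (18.6%, 18.1% to 19.3%), while its interval overlapped that of the other candidates (14.3%, 13.0% to 15.8%). From 45% to 50% it was at 7.37% in desert regions and 7.57% in desert windows, from 50% to 55% at 3.34% and 4.95%, and from 55% upwards at 1.06% and 1.90%.

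**Figure D5:**
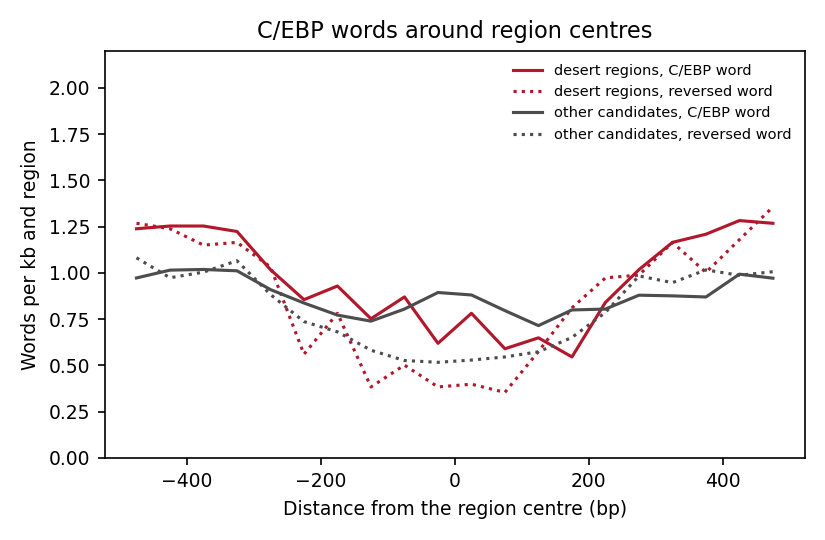
C/EBP words and reversed words per kb and region (y axis) in steps of 50 bp up to 500 bp from the region centre (x axis), for the 1357 desert regions and the 16542 other candidates. In the steps just left and right of the centre, desert regions have 0.619 and 0.781 C/EBP words and 0.383 and 0.398 reversed words per kb, and other candidates have 0.893 and 0.880 C/EBP words and 0.516 and 0.528 reversed words.

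The share was highest in the highest scores, where regions were few. It was 10.2% for desert regions with scores from 50 to 60, 6.71% from 100 to 150 (4.30% to 9.89%), 11.4% from 150 to 200 (4 of 35, 3.20% to 26.7%) and 28.6% from 200 upwards (4 of 14, 8.39% to 58.1%). In the other candidates it rose from 8.90% at scores from 50 to 60 through 11.5% from 100 to 150 to 47.2% from 200 upwards (41.9% to 52.5%). Between scores of 100 and 150, the interval of the desert regions lay below that of the other candidates (10.3% to 12.8%).

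Other words were counted in the same windows. Centres and flanks differ in GC content, as given above, and these words were not split by it. The part of base composition in their shares was not tested. An E-box, CAGCTG or CACGTG, lay at the centre of 11.2% of desert regions (9.57% to 13.0%) and in 4.57% of their flanks, while in all candidates it was at 13.0% of centres and 7.71% of flanks. ETS words (AGGAAG or CGGAAG, then C or T) were at 7.66% of desert centres and 6.23% of flanks, against 10.1% and 7.34% in all candidates. RUNX words (TGTGGT or TGCGGT, then C or T) stood at 5.60% and 4.02%, against 6.77% and 5.83%. GATA words (GATAA after A or T) were at 8.77% of desert centres and 19.1% of flanks, against 8.65% and 14.6% in all candidates. The AP-1 word TGANTCA was at 3.46% of desert centres and 4.13% of flanks, against 3.93% and 4.17%. The SP1 word CCCGCCC was at 0.958% of desert centres (0.511% to 1.63%) and 0.368% of flanks, against 1.58% and 0.972%. C/EBP and RUNX words stood together in 14 of the 1357 central windows, C/EBP and ETS words in 12. These pairs were not counted in all candidates, and no value for independent words was computed. The counts therefore do not show that the words go together. None of the 7 kinds of word was present in 845 central windows (62.3%), against 56.8% of all candidates. A match describes the letters in a window and does not show a bound site.

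Genes of a list of factors, receptors and surface markers that act in blood cells flanked 71 desert regions (5.23%, 4.11% to 6.55%). Its genes flanked 25 of the 670 deserts (3.73%), with 3.62% of the desert bases, and 20 of the 25 held a region. The density there was 4.77 per Mb, against 3.30 over all deserts. The median score of the 71 was 80.9, near the 82.1 of all desert regions, and 9 of them reached 100 (12.7%, 5.96% to 22.7%), against 28.9% of all desert regions. The list does not hold every gene with a part in blood cells: Mef2c and Cited2, described above, are not in it. A C/EBP word was at the centre of 10 (14.1%, 6.97% to 24.4%), an interval that holds the 8.92% of all desert regions.

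Regions were counted beside 16 genes of the list, most of which are named here. Zeb2, a zinc finger repressor, had 10 in its desert of 3097 kb, and Gata3, a regulator of T cells, had 9 in 2201 kb. Bcl11a, which represses fetal globin genes, had 8, the homeobox gene Meis1 had 7, and Id2, an inhibitor of E proteins, had 6. Beside Trib2, a pseudokinase gene that can cause leukemia in mice when overexpressed, with degradation of C/EBPα, lay 5 regions. The region chr12:16277615-16278109, between Trib2 and Lpin1, had the highest score of the 71, 152, and all of its 32-mers occurred once. Sox4, a factor of lymphoid and leukemic cells, followed with 142 at chr13:28620662-28621422, which was 1 of its 3 regions. Klf4 had 4 regions, Ebf1, Foxp1 and Tox had 3 each, Klf6, Myc and Runx1 had 2 each, and Mecom had 1. Runx1, which is required for the emergence of blood stem cells, had its higher score, 60.3, at chr16:93157743-93158269. For Myc, the higher score was 93.0, at chr15:62214388-62214937. Deserts beside Cxcr4 and Satb1 held none.

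Genes of a list named neural adhesion and synapse flanked 399 desert regions (29.4%). The list also holds genes that are not particular to neurons, such as Cdh5, Cdh26 and Kcnrg. With all annotated genes as boundaries, the share was 13.0% of 431 regions. With the boundaries used here, genes of the list flanked 140 of the deserts (20.9%). These held 33.4% of the desert bases, and the density there was 2.90 per Mb. The share of regions was thus above the share of deserts and below the share of bases. Median score (83.4) and the share with a C/EBP word at the centre (9.52%, 6.83% to 12.8%) were near those of all desert regions, and 36.8% (32.1% to 41.8%) had at least 90% of their 32-mers occurring once.

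Developmental transcription factors flanked 130 desert regions (9.58%, 8.07% to 11.3%), in 52 deserts (7.76%) with 6.48% of the desert bases. The density was 4.88 per Mb, and 68.5% of these regions (59.7% to 76.3%) had at least 90% of their 32-mers occurring once, against 46.1% of all desert regions. A C/EBP word was at the centre of 16 (12.3%, 7.20% to 19.2%), against 8.92% of all desert regions, which lies within that interval. This list shares Gata3, Zeb2, Bcl11a, Meis1, Id2 and others with the blood cell list, so that regions are counted in both. Of its further genes, picked after the counts were seen, Sox5 had 8 regions in 628 kb of desert and the nuclear receptor gene Nr2f1 had 7 in 2084 kb. Chemosensory receptor genes flanked 2 of the 670 deserts, with 0.0782% of the desert bases, and 1 desert region, which is too few to compare. Assignment of a region to a flanking gene rests on position alone.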

How the data were processed

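The authors mapped reads to mm9 with Bowtie (0.12.8 in the submitters' processing notes), called candidate regions with MACS 1.4.2 against an IgG mock, and deposited them with a score, the p-value of MACS as a negative log10 multiplied by 10. The lowest score corresponds to a p-value of 1e-05. The list is that of candidates, to which later filters of peak height, agreement between samples, mock signal and inspection had not been applied, and whether libraries were pooled is not stated. Bowtie with standard parameters also places reads that match several positions. Here, TSSs of 22359 protein-coding genes came from the GENCODE annotation of mm9 (transcript of longest span per gene). Deserts were gaps between transcripts with sequenced bases over 300 kb from every TSS. Words were counted on both strands within 70 bp of region centres, and 32-mers over the whole genome. Python 3.11.15, numpy 2.4.6, scipy 1.17.1, pysam 0.24.0 and blastn 2.17.0 (e-value 1e-10) were used, and the rule, words, intervals and 32-mer counts were checked on simulated data. Regions named were the 10 highest scores, the 5 farthest from a TSS, the 5 fullest deserts, those in the high-confidence list, 3 on each side of the limit, and those flanked by the blood cell list. A region of the 10 highest scores and a gene of the blood cell list are not reported here. Intervals are Clopper-Pearson at 95%, and for density ratios the same interval of the count. The members and lists were chosen with earlier results of these data known.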

Additional observations from a re-analysis of the deposited data

How the results depend on the processing

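Of 85 values of the 9 results under 13 alternative settings, 56 lay within the interval (counts: within 1.5 times) of the value reported and 29 did not. The share of desert regions with a C/EBP word at the centre left its interval with windows of 150 bp to each side (17.9%) and with TTGCNNAA alone (6.48%), and was 7.91% or more in all other settings run. By construction, a wider window can only raise this share, and TTGCNNAA alone can only lower it. The density ratio stayed below 1 in every setting run. With a limit of 200 kb it was 0.461 and the neural list flanked 23.6%. With 500 kb there were 680 regions, a ratio of 0.386 and 38.8% beside the neural list. With all annotated genes as boundaries there were 431 regions, a ratio of 0.455, a median width of 585 bp, 50.4% of deserts occupied and 13.0% beside the neural list. With scores of at least 100 there were 392 regions, a ratio of 0.632, a median score of 118 and 35.5% of deserts occupied. With at least 90% of 32-mers occurring once there were 626 regions, a ratio of 0.265 (the genome was left as it is), a median width of 573 bp, a median GC content of 49.3%, 43.1% of deserts occupied and 23.5% beside the neural list. Windows of 150 bp had a median GC content of 49.8%. The highest-scoring region of each desert gave a median score of 106, 25.2% beside the neural list and 55.6% with a score of at least 100, which its construction raises. Of 2 settings chosen after seeing the data, leaving out the heavy-chain desert moved none of the values run for it past its interval. The share of deserts occupied and the share beside the neural list were not run for it. In the other setting, regions that share no sequence with another numbered 717, their median width was 576 bp and their median GC content 48.9%. The other causes were not tested. Stricter settings hold fewer regions by construction. With 1 library and a list without read numbers, neither replicate spread nor the precision that depth gives was computed. No paired analysis was possible because 1 library was analysed.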
